A study of Mus musculus with 461 samples.

Results

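The genes described here are the cytosolic ribosomal protein genes that carry the systematic names beginning with Rpl, Rps or Rplp followed by a number. The name rule found 3 genes among the 31673 rows of the expression tables: Rplp0 (ENSMUSG00000067274), Rplp1 (ENSMUSG00000007892) and Rplp2 (ENSMUSG00000025508). In the reference 88 gene symbols meet the rule, and the other 85 are not analysed here. The 3 genes encode the P proteins of the large ribosomal subunit, so the account is of the ribosomal stalk and not of the cytosolic ribosome as a whole. The cells were OG2 transgenic mouse embryonic fibroblasts (MEFs) of a mixed background of 129SVJ, C57B6 and CBA, which carry the OG2 reporter of Oct4 promoter activity. They were put through the reprogramming system named 7F, whose published cocktail consists of Jdp2, Jhdm1b, Mkk6, Glis1, Nanog, Esrrb and Sall4, and single cells were captured on the Fluidigm C1 system. Of the 461 cells, 74 were of day 0, 58 of day 1, 119 of day 3, 59 of day 4, 84 of day 5 and 67 of day 7. Reprogramming cells were grown in iCD1 medium and MEFs in a medium with 10% serum, so day 0 may differ from the later days in medium. Messages of the cocktail genes Esrrb and Nanog were higher at day 0 than at day 5. Their log2 fold changes for day 5 against day 0 were -2.83 and -1.54, so day 0 cannot be taken as a baseline without factors. The cell titles carry a prefix (b1, b2 or b3) whose meaning the labels do not give, and the cells of a prefix and day are called a set. There were 10 sets, 8 of them with 10 or more cells: day 0 with 20 cells of b1 and 54 of b2, day 3 with 61 of b1 and 58 of b2, and days 1, 5 and 7 with 58, 79 and 65 cells of b2, while day 4 had 59 cells of b3 alone.

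The ribosomal stalk is a flexible arm at the factor-binding side of the large subunit. Rplp0 (the protein uL10) anchors it to ribosomal RNA, and dimers of the acidic proteins P1 (Rplp1) and P2 (Rplp2) bind to Rplp0. The shared acidic tail of the 3 proteins recruits the translational GTPases, among them the elongation factors eEF1A and eEF2. Messenger RNAs of ribosomal proteins usually start with a run of pyrimidines, the 5' terminal oligopyrimidine (TOP) tract, through which mTOR signalling controls their translation. They are among the most abundant messages of growing cells, and Rplp0 is widely used as a reference gene in quantitative PCR.

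The start regions of the stalk genes are shown because a tract of this kind is the feature that ribosomal protein messages are known to share. The sequences are RefSeq's (build GRCm38.p6), from 50 bases before the annotated start to 20 bases after it, on the strand of the gene, with the longest run of C or T letters within 20 bases of that start in capitals. The table matched 2 of the 3 members, and Rplp1 is named only. For comparison, Rpsa, Rack1 and Fau, ribosomal proteins whose names fall outside the rule, are given too. The windows are chr5:115559417-115559486 for Rplp0, chr7:141447601-141447670 for Rplp2, chr9:120127716-120127785 for Rpsa, chr11:48800310-48800379 for Rack1 and chr19:6057897-6057966 for Fau, all on the plus strand.
Rplp0: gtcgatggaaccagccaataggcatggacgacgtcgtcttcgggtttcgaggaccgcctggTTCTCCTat
Rplp2: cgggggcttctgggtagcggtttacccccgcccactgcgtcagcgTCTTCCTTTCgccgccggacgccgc
Rpsa: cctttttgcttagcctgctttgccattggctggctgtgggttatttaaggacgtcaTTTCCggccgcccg
Rack1: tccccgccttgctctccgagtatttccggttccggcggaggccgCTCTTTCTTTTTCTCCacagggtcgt
Fau: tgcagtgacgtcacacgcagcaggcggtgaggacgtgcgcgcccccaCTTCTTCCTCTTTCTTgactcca
The run of Rplp2 is 10 letters long and spans its annotated start, and 7.388% of the 32851 promoters in the table have a run at least as long. The run of Rplp0 is 7 letters long and begins 11 bases after the annotated start, and 24.31% of the promoters match or exceed it. Rack1 and Fau each have a run of 16 letters across the annotated start, a length that 1.169% of the promoters reach. The run of Rpsa is 5 letters long, which 57.481% of the promoters match or exceed. Only the strand of the gene was searched, and such a run is a description of the letters, not of the start site used in these cells.

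Each cell was its own library, with between 0.319 and 7.00 mega-counts (M) of RSEM expected counts, which are estimates of reads per gene, and no 2 cells had identical counts. The set medians ran from 0.983 M at day 4 to 3.31 M in set b2 of day 0. The 10 fibroblast markers had a summed mean TPM of 889 and 718 in the day 0 sets and of 80.8 at day 7. In set b2 of day 0 and at day 7 alike, 2 of them had a mean TPM under 1. The 9 pluripotency markers, which include the cocktail genes Nanog and Esrrb, summed to 1448 and 1171 at day 0, where 7 of them had a mean TPM under 1, and to 10715 at day 7. Reads of the C1 method carry no molecular identifiers, so intervals for shares of cells cover counting error only.

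All 3 stalk genes were detected at a TPM of 1 or more in 461 of 461 cells (100%, exact 95% interval 99.203 to 100%). TPM, a library-scaled transcript level, is a share of a cell's transcripts scaled for gene length, so it gives no molecules per cell. Rplp0, the anchor of the stalk, had a mean TPM of 3907 over the 8 sets and ranked 19 among the 31673 rows. The other 85 symbols of the name rule are not among these rows, so the ranks leave them out. Rplp1 followed with 3141 (rank 25) and Rplp2 with 2367 (rank 39). After every cell was thinned to 300000 counts, all 461 cells still had counts of each gene, with at least 8 for Rplp0, 5 for Rplp1 and 40 for Rplp2. The lowest TPM of any cell was 20.9 for Rplp0 and 75.6 for Rplp1, both in set b1 of day 3, and 312 for Rplp2, at day 4. Together the 3 genes held 0.943 ± 0.196% of the summed TPM of a cell (mean and SD of 8 set means), from 0.646% in set b1 of day 0 to 1.22% at day 5.

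The set means of Rplp0 were 3087 (b1) and 4044 (b2) TPM at day 0, 3851 at day 1, 3253 (b1) and 3630 (b2) at day 3, 3620 at day 4, 4996 at day 5 and 4774 at day 7. The values of days 5 and 7 lay above all others. The gap between the day 0 sets, in cells that share a day, was about as wide as that between day 0 b2 and day 5. The set means of Rplp1, the first of the acidic proteins, were 2040 (b1) and 3060 (b2) TPM at day 0, 4520 at day 1, 2213 (b1) and 3144 (b2) at day 3, 2888 at day 4, 4199 at day 5 and 3064 at day 7. Days 1 and 5 were the high points, and the remaining b2 sets sat close together. The set means of Rplp2, its partner, were 1321 (b1) and 2566 (b2) TPM at day 0, 2798 at day 1, 1764 (b1) and 2296 (b2) at day 3, 2260 at day 4, 2965 at day 5 and 2970 at day 7. For all 3 genes the b1 set had the lower mean TPM at day 0 and at day 3. From the lowest to the highest set mean, the range was 1.62-fold for Rplp0, 2.22-fold for Rplp1 and 2.25-fold for Rplp2. The median over the 309 genes with a mean TPM of 500 or more was 2.26-fold.

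**Figure D1:**
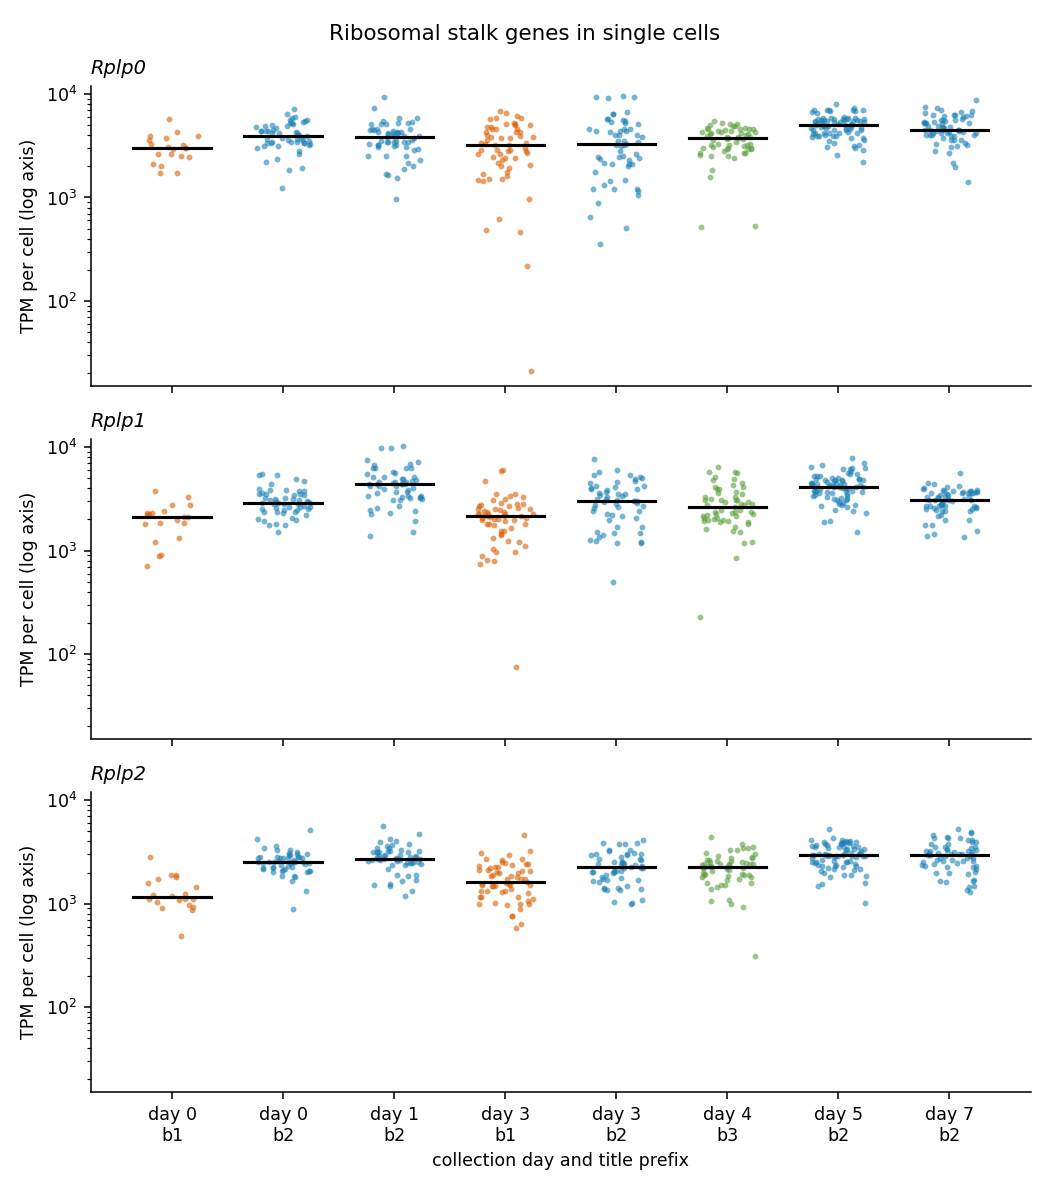
TPM of Rplp0, Rplp1 and Rplp2 (log axis) in each cell of the 8 sets with 10 or more cells, in columns by day and title prefix and coloured by prefix, with the set median as a black bar. Every cell lies well above 0, and the long lower tail of Rplp0 is in the day 3 sets, where single cells reach 20.9 and 352 TPM.

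Within cells the usual order was Rplp0 over Rplp1 over Rplp2. Rplp0 was the highest of the 3 genes in 319 of 461 cells, Rplp1 in 111 and Rplp2 in 31. Rplp2 was the lowest in 338 cells. Day 1 departed from this order: Rplp1 was the highest in 40 of its 58 cells and Rplp0 in 15. The median ratio of Rplp1 to Rplp0 was 1.16 at day 1, with quartiles of 0.943 and 1.37. In the other 7 sets the median ratio was 0.633 (day 0 b1), 0.751 (day 0 b2), 0.647 (day 3 b1), 0.909 (day 3 b2), 0.762 (day 4), 0.824 (day 5) and 0.638 (day 7). Rplp1 exceeded Rplp0 in 42 of 58 cells at day 1 and in 5 of 65 at day 7. Day 1 was a single set, so its ratio has no replicate set. The ratio of Rplp2 to Rplp0 varied less within prefix b2, with medians of 0.628 at day 0, 0.730 at day 1, 0.649 at day 3, 0.580 at day 5 and 0.604 at day 7. It was 0.618 at day 4 (b3), and the b1 sets were the lowest with 0.386 at day 0 and 0.521 at day 3. Between the acidic partners, the median ratio of Rplp2 to Rplp1 was lowest at day 1 (0.631) and highest at day 7 (0.942).

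**Figure D2:**
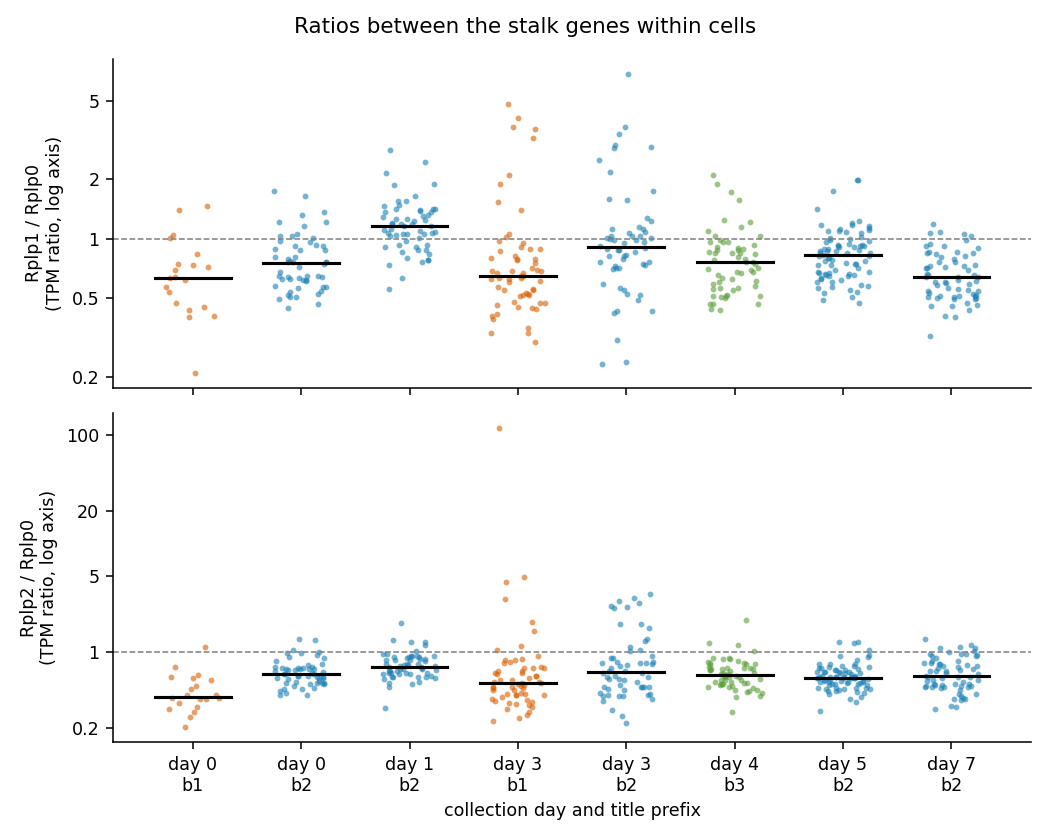
Ratio of Rplp1 to Rplp0 (top) and of Rplp2 to Rplp0 (bottom) in each cell by set, from TPM on log axes, with set medians as black bars and a dashed line at a ratio of 1. The day 1 median of the upper panel, 1.16, is the only one above the line.

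The stalk genes varied less from cell to cell than the median abundant gene. Most of the abundant genes had a lower mean TPM than the stalk genes, which ranked 19, 25 and 39, and level was not matched. The other symbols of the name rule are not among the abundant genes compared. The coefficient of variation of TPM within a set averaged 36.7% for Rplp0, 38.2% for Rplp1 and 32.5% for Rplp2 over the 8 sets, against a median of 53.4% among the 309 abundant genes. Day 3 was the exception for Rplp0, though not for Rplp0 alone. There the SD of its log2(TPM + 1) was 1.32 in set b1 and 1.05 in set b2, against 0.444 and 0.470 at day 0, 0.569 at day 1, 0.631 at day 4, 0.367 at day 5 and 0.465 at day 7. For Rplp2 the SD was 0.602 and 0.513 at day 3 and between 0.385 and 0.594 in the other 6 sets. In the b1 and b2 sets of day 3 it was 0.886 and 0.760 for Rplp1, 0.866 and 1.11 for Rpsa and 0.937 and 0.791 for Rack1. At day 0 it was 0.637 and 0.425 for Rplp1, 0.524 and 0.427 for Rpsa and 0.555 and 0.497 for Rack1. Fau was not wider at day 3, with 0.654 and 0.531 against 0.666 and 0.583 at day 0. In 10 cells Rplp0 lay under 25% of the median of its own set: 5 in set b1 of day 3, 3 in set b2 of day 3 and 2 at day 4. Chosen for low Rplp0, these cells are described without a test. In all 8 such cells of day 3, both Rplp1 and Rplp2 exceeded Rplp0, and Rplp2 lay between 753 and 2430 TPM. The cell with the lowest Rplp0, 20.9 TPM from 21 counts, had 75.6 TPM of Rplp1 and 250 of Rpsa, against set medians of 2145 and 1826. The same cell had 2430 TPM of Rplp2 and 895 of Rack1, against set medians of 1630 and 1563. The lowest cell of day 3 b2 had 352 TPM of Rplp0, 2418 of Rplp1 and 1031 of Rplp2. One of the day 4 cells was low in all 3 genes, with 515 TPM of Rplp0, 227 of Rplp1 and 312 of Rplp2, and had 0.592 M counts. The 8 day 3 cells had between 0.783 and 2.98 M counts, and the part of depth or capture in their values was not tested. Low cells at day 3 were not particular to Rplp0. In the b1 and b2 sets, 5 and 7 cells were under 25% of the set median for Rpsa. There were 2 and 1 for Rack1, 1 and 1 for Rplp1, 1 and 0 for Fau, and 0 in both sets for Rplp2.

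**Figure D3:**
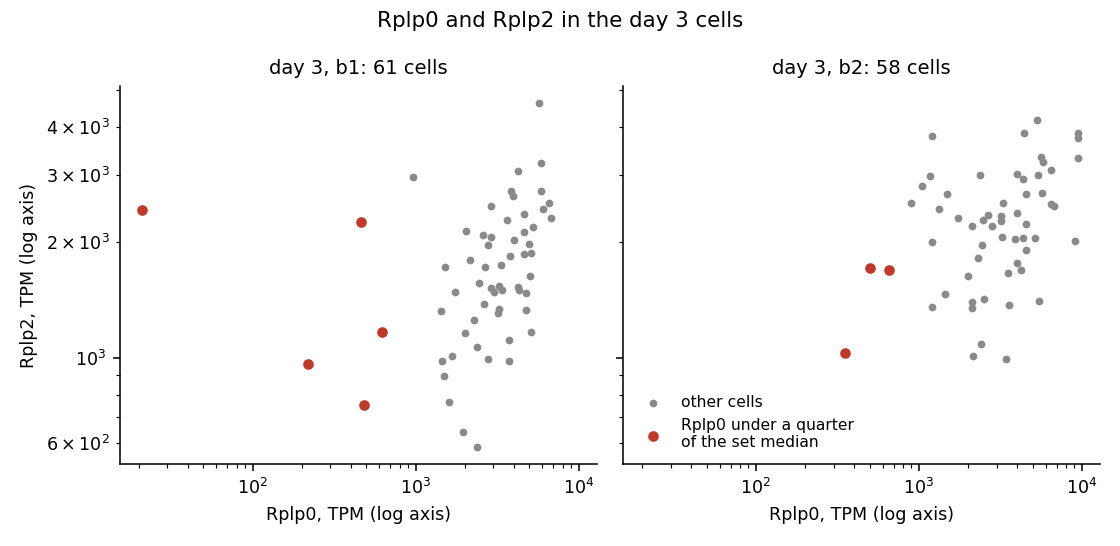
Rplp2 against Rplp0 in TPM (both axes log) for the 61 cells of set b1 and the 58 cells of set b2 at day 3, with the cells whose Rplp0 is under 25% of the set median in red (5 and 3 cells). The red cells lie far to the left while their Rplp2 values stay within the range of the other cells.

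To ask whether the stalk genes changed along the course, each set's expected counts were added up over its cells, and days were compared by edgeR (a two-sided quasi-likelihood F test) with Benjamini-Hochberg adjustment over 22378 genes and a threshold of 0.05. All 3 genes passed the filter on low counts. None of them passed the test in any of the 6 comparisons. Their adjusted p-values ran from 0.684 to 1, and at an unadjusted p under 0.05 the count was 0 as well. DESeq2 called none of the 3 either. Over all genes, the share called was 1.18% for day 1 against day 0, 3.14% for day 3, 3.03% for day 4, 4.73% for day 5 and 6.6% for day 7 against day 0, and 3.52% for day 7 against day 3. Only days 0 and 3 had 2 sets, the other days were assumed to vary as these did, and the labels do not say that sets came from separate cultures. The p-values therefore measure only the spread between these sets.

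In CPM (counts scaled to library size with TMM factors and with no correction for gene length), Rplp1 stood at 638 (b1) and 827 (b2) at day 0 and at 1242 at day 1, above both. It was 624 and 662 in the day 3 sets, 613 at day 4, 968 at day 5 and 632 at day 7, so the day 3, 4 and 7 values lay close to the lower day 0 set. The log2 fold change of day 1 against day 0 was 0.76 ± 0.43 (SE; adjusted p = 0.817), the largest of the 3 genes in any comparison, and its 95% interval ran from 0.944-fold to 3.05-fold. Rplp0 stood at 2393 (b1) and 3834 (b2) CPM at day 0, 3742 at day 1, 2369 and 2647 at day 3, 2435 at day 4, 3900 at day 5 and 3565 at day 7. All later sets lay within or near the range spanned by the day 0 sets. Its log2 fold change was -0.31 ± 0.34 for day 3 and 0.32 ± 0.41 for day 5 against day 0 (adjusted p = 0.84 and 0.884), and 0.51 ± 0.41 for day 7 against day 3 (adjusted p = 0.684). Rplp2 stood at 365 (b1) and 635 (b2) CPM at day 0, and between 442 and 734 in the later sets, so only days 1 and 5 exceeded the higher day 0 set. Its largest log2 fold change was 0.55 ± 0.44, for day 1 against day 0 (adjusted p = 1). Over the 3 genes and 6 comparisons the 95% intervals reached from 0.442-fold to 3.05-fold, so the comparisons do not show that the genes were constant.

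**Figure D4:**
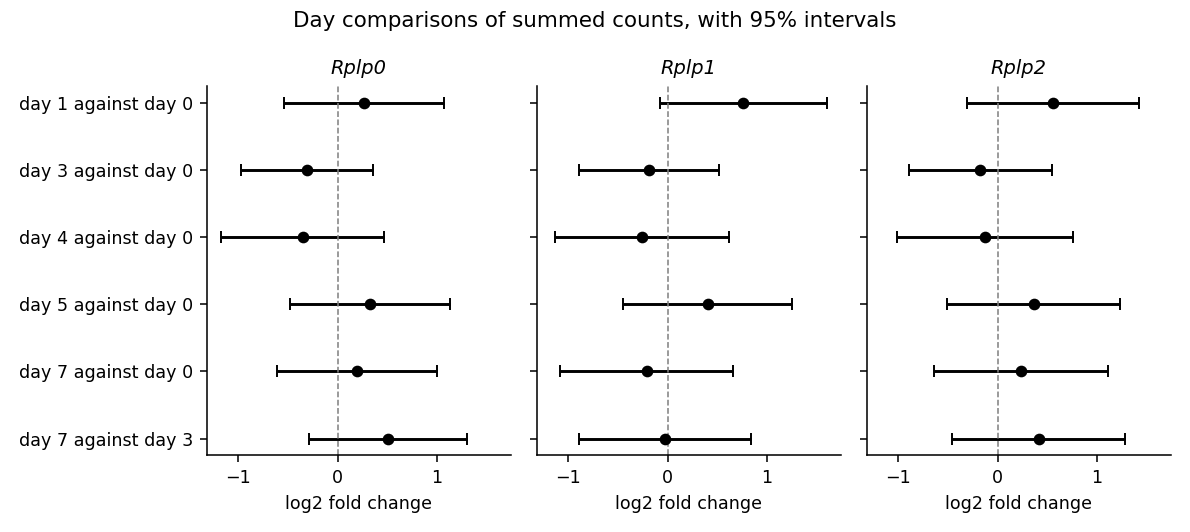
Log2 fold change (points) and 95% interval (bars) of Rplp0, Rplp1 and Rplp2 in the 6 day comparisons of summed counts, with a dashed line at 0. Every interval includes 0, and the lower ends run from -1.18 (Rplp0, day 4 against day 0) to -0.08 (Rplp1, day 1 against day 0).

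Within a prefix, day 3 and day 0 could be set side by side without a test. In b2, all 3 genes were lower at day 3, by -0.53 (Rplp0), -0.32 (Rplp1) and -0.52 (Rplp2) in log2 CPM. In b1 the differences were -0.01, -0.03 and 0.28, so the sets of the prefixes did not move alike. Library depth, prefix and day cannot be told apart in these sums for the days with a single set.

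Of the ribosomal proteins whose names fall outside the rule, 3 are described: Rpsa (the laminin receptor protein uS2), Rack1 (a scaffold on the small subunit) and Fau (made as a fusion with a ubiquitin-like protein). None of the 3 passed the test in any comparison of the main fit. Rpsa came nearest at day 3 against day 0, with a log2 fold change of -0.73 ± 0.34 (adjusted p = 0.345). Its CPM was 2596 (b1) and 4879 (b2) at day 0 and 2219 and 2279 at day 3, so both day 3 sets lay below both day 0 sets. Without set b1 of day 0 the log2 fold change of Rpsa was -1.12 at day 3 and -1.11 at day 4 against day 0. Without set b2 of day 0 it was -0.21 and -0.20. Rpsa passed the threshold without set b1 of day 0 only, so the size of the fall and its call depended on the day 0 set. Each of these fits left day 0 with a single set. Within the prefixes, day 3 minus day 0 in log2 CPM was -0.23 in b1 and -1.10 in b2. In the main fit, day 3 against day 0 gave -0.46 ± 0.35 for Rack1 and -0.64 ± 0.37 for Fau (adjusted p = 0.695 and 0.526).

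Reads of ribosomal protein messages can also align to near copies of these genes. A near copy was taken as another gene with a transcript at least 90% identical over at least 150 bases in the GENCODE M21 transcripts. Rplp0 had 8 such genes, Rplp1 10 and Rplp2 2, and 1 for each was among the rows. For Rplp1 it was Gm10073, 98.79% identical over 496 bases, which took 4.64% of the counts of the pair. For Rplp2 it was Wdr89, 99.329% identical over 447 bases, with 6.67% of the pair's counts, from 4.08% at day 1 to 11.8% in set b1 of day 0. Counts of Rplp1 were not exactly whole (no tolerance) in 456 of 461 cells and those of Rplp2 in 458, and RSEM gives such values where a read is shared out between genes. Counts of Rplp0 were exactly whole in every cell. Gucd1, the gene among the rows with a transcript that matched Rplp0, had 0.393% of their joint counts. Values of Rplp1 and Rplp2 are therefore uncertain by the share that the counting may have placed on a copy.

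Across cells of a set, the stalk genes went up and down together. The Pearson correlation of log2(TPM + 1), averaged over the 8 sets, was 0.56 between Rplp0 and Rplp1, 0.48 between Rplp0 and Rplp2 and 0.59 between Rplp1 and Rplp2. It was lowest between Rplp0 and Rplp2 in set b1 of day 3, at 0.24. The values are over 20 to 79 cells a set, and genes of a cell share its library, depth and scaling. With the logarithm of a cell's total counts the mean correlation was between 0.13 and 0.22, and with Actb, the cytoskeletal actin, between 0.12 and 0.18. With Gapdh, the glycolytic enzyme, it was higher, at 0.46 for Rplp0, 0.35 for Rplp1 and 0.33 for Rplp2. With Eef1a1, the elongation factor that the stalk recruits, Rplp0 had 0.58 on average, from 0.30 at day 7 to 0.88 at day 4. Rplp1 and Rplp2 averaged 0.40 and 0.30 with Eef1a1.

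The genes most like the stalk genes were sought by the mean within-set correlation with the average of the 3, over 1613 genes with a mean TPM of 100 or more, whose median was 0.11. This rule was chosen after the data were seen. Of the 40 highest genes, 30 were predicted genes named Gm with a number. By sequence, 27 of the 40 had a transcript at least 90% identical over at least 300 bases to a coding transcript of a gene that meets the name rule, while 1.86% of all 1613 genes (30 of them) did. The leading genes were Gm16519 (r = 0.72, a near copy of Rpl12), Gm2000 (0.72, Rpl35), Gm44510 (0.72, Rps12) and Gm10076 (0.72, Rpl41). In all, the 27 genes matched 21 different ribosomal protein genes of both subunits. Among the 13 without a match were Rpsa (0.67, eighth in the order) and Rack1 (0.57), the elongation factor genes Eef1b2 (0.55) and Eef1a1 (0.51), and the spliceosome genes Snrpd2 (0.59) and Snrpg (0.51). Fau (0.41, place 68) stood outside the 40 and below Gapdh (0.45, place 54). Reads of a predicted gene and of its parent cannot be told apart here where the letters are the same.

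**Figure D5:**
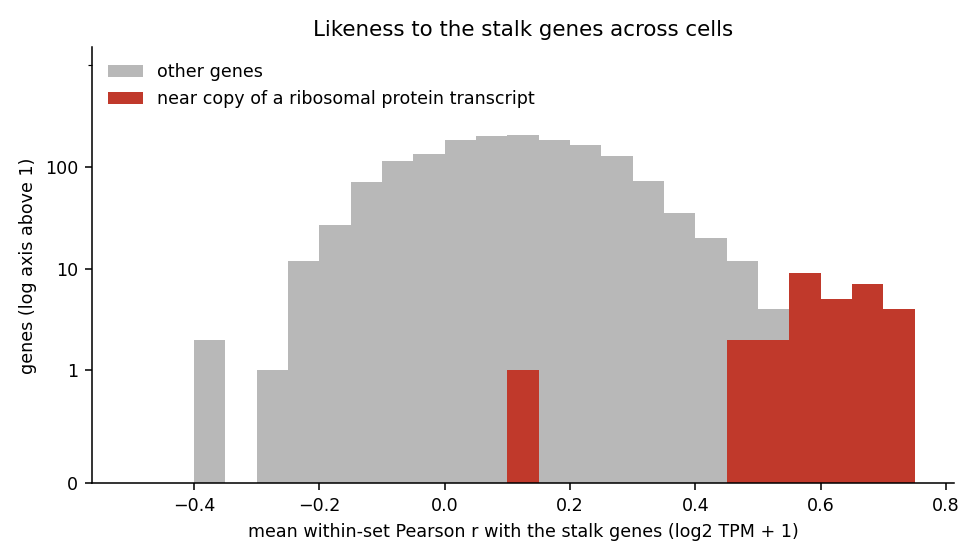
Number of genes (vertical axis, linear up to 1 and log above) by mean within-set Pearson correlation with the average of the 3 stalk genes, for 1613 genes with a mean TPM of 100 or more, with near copies of ribosomal protein transcripts (90% identity over 300 bases) in red and all other genes in grey. Of the 30 genes in red, 27 are among the 40 genes furthest to the right. A gene is in red where any of its transcripts matches, so named genes are among them. Trappc4, a named gene, is the lowest at 0.13.

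The predicted genes with such a match were also followed by day, and whether their counts track the messages of their parents was not tested. There were 32 of them among the rows, copies of 20 genes of the rule, and all 32 passed the filter on low counts. Several rows share a parent, with 4 for Rpl29, so the 32 rows are not separate messages. Their summed TPM averaged 35279 (b1) and 59395 (b2) at day 0, 57226 at day 1, 35769 (b1) and 41983 (b2) at day 3, 40299 at day 4, 57341 at day 5 and 59385 at day 7. Days 3 and 4 and both b1 sets were low, and the other b2 sets were alike. For day 3 against day 0, the log2 fold change of all 32 was below 0, with a median of -0.51 beside 0.11 over all genes. It was below 0 for 30 of the 32 at day 4 (median -0.76 beside 0). No single one of them was called at day 3 or day 4. Without set b1 of day 0, 2 were called at day 3, and without set b2 of day 0, 1 was called at day 3 and 2 at day 4. Without a scaling factor the medians were -0.20 and -0.38, 7 of the 32 were above 0 on each day, and the median of all genes rose to 0.41 and 0.30. Within the prefixes, the difference of day 3 from day 0 in log2(CPM + 1) had a median of -0.83 in b2 (1 of 32 above 0) and -0.14 in b1 (7 of 32 above 0). At days 1, 5 and 7 the medians were 0.01, -0.05 and -0.23. The list was formed after the data were seen and carries no test.

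One predicted gene, Gm2174, a copy of Rps23, was called lower at days 1, 5 and 7 than at day 0 and at day 7 than at day 3, with a log2 fold change of -5.46 ± 1.51 at day 1 (adjusted p = 0.0297). Its CPM was 57.7 and 51.8 in the b1 sets of days 0 and 3 and between 0.664 and 1.26 in all 6 other sets, so its level followed the prefix and not the day. Without either b1 set, no call of Gm2174 remained in any comparison. Gm14214 and Gm17669, both copies of ribosomal protein messages, differed the same way, with 27.3 and 22.9 CPM in the b1 sets against at most 4.95 elsewhere for Gm14214, and 47.4 and 51.5 against at most 17.7 for Gm17669. Gm6576, a copy of Rps2, differed the other way, with 45.03 and 42.65 CPM in the b1 sets and between 168 and 338 elsewhere. These 3 were picked after their values were seen. Gucd1, a gene with a transcript 91.224% identical to that of Rplp0 over 923 bases, had 1.70% and 0.992% of their joint counts in the b1 sets. In the other sets it had at most 0.475%. Counts of Rplp0 were exactly whole in every cell, so no sharing of reads with Gucd1 shows in them. What differs between the prefixes is not given in the labels and was not tested.

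The levels of the stalk genes were also set against the marker lists within sets. At day 7, where the summed pluripotency markers ran from 0.17 to 27652 TPM by cell, the correlation with the summed pluripotency markers over 65 cells was 0.06 for Rplp0, 0.35 for Rplp1 and 0.56 for Rplp2. With smooth muscle and myofibroblast markers it was -0.33, -0.49 and -0.60, and with the proliferation markers 0.24, 0.44 and 0.46. With the epithelial list it was -0.56, -0.32 and -0.15. Day 7 was the extreme set for several of these lists, and the sign differed between sets. In set b1 of day 0, over 20 cells, Rplp2 had -0.47 with the pluripotency list, and the 3 genes had 0.35, 0.45 and 0.43 with the smooth muscle list. Averaged over the 8 sets, the correlations were 0.02, 0.01 and 0.02 with the pluripotency list and 0.06, -0.02 and 0.01 with the smooth muscle list. For all 8 marker lists the averages lay between -0.14 and 0.22. These are descriptions of cells that share a library preparation, with no test.

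The counts of the lists that follow stand beside shares called over all genes of 1.18% at day 1, 3.14% at day 3, 3.03% at day 4, 4.73% at day 5 and 6.6% at day 7 against day 0, and 3.52% in day 7 against day 3. With a few calls in a list at most, they are described as single genes. List medians are given without a test, and nothing is read from a list as a whole. Of 26 translation factors and other genes with TOP messages, 1 fell at days 4, 5 and 7 against day 0 and none at days 1 and 3. The gene was Vim, a mesenchymal intermediate filament whose message has a TOP tract, with a log2 fold change of -1.91 ± 0.49 at day 7 (adjusted p = 0.0028). Without either day 3 set, which lowers the degrees of freedom, its adjusted p at day 7 was 0.0509 or 0.057, and DESeq2 did not call it. The fibroblast markers were low on the same days, and their part in the fall of Vim was not tested. Of 25 translation factors without TOP messages, Eif2s2, a subunit of the initiation factor eIF2, rose in day 7 against day 3. Its CPM was 283 and 438 in the day 3 sets and 939 at day 7. Without set b1 of day 3 the log2 fold change was 1.10 (adjusted p = 0.883), and without set b2 it was 1.73 (adjusted p = 0.272).

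Of the 61 ribosome biogenesis genes tested, 1 rose at day 5 (background 4.73%) and 2 at day 7 (background 6.6%), no larger a share than over all genes. Nol6, a nucleolar processing factor, was at 7.56 and 5.75 CPM at day 0, at 65.3 at day 5 and at 42.5 at day 7, with log2 fold changes of 3.30 ± 0.80 and 2.68 ± 0.79 (adjusted p = 0.00172 and 0.0161). Nat10, which acetylates ribosomal RNA, was at 21.2 and 23.98 CPM at day 0 and at 122 at day 7 (2.44 ± 0.64, adjusted p = 0.00419). Of 16 genes of RNA polymerase I and its factors, Polr1c, a subunit shared with polymerase III, rose at days 5 and 7. It went from 42.9 and 66.4 CPM at day 0 to 173 and 170, with log2 fold changes of 1.66 and 1.64 (adjusted p = 0.0307 and 0.0264). The calls of Nol6 at day 5 and Nat10 at day 7 held without each set in turn. Nol6 at day 7 had an adjusted p of 0.0503 and 0.0589 without the day 3 sets b1 and b2. Polr1c lost its call without set b1 of day 0 (1.38 and 1.36 at days 5 and 7, adjusted p = 0.121 and 0.112) and without either day 3 set (adjusted p between 0.0832 and 0.106). The median log2 fold change of the biogenesis list was 0.63 at day 5 and 0.49 at day 7, while the median of all genes was 0. It was also above 0 for the polymerase I list (0.67 and 0.44) and the mTOR pathway list (0.93 and 0.84). For the mitochondrial ribosomal protein list it was 0.04 and -0.13, and for the Myc family list -0.20 and -0.23. A median above 0 was thus not particular to the biogenesis list. The median of all genes was not matched for level, and no list median was tested.

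Of 78 mitochondrial ribosomal protein genes, Mrpl13 rose at days 1, 4 and 5, and no other passed in any comparison, beside backgrounds of 1.18%, 3.03% and 4.73%. It stood at 305 and 453 CPM at day 0, 1275 at day 1, 331 and 703 at day 3, 1086 at day 4, 1213 at day 5 and 451 at day 7. Days 1, 4 and 5 lay above all other sets, and the day 3 sets were wide apart. Without either day 3 set its adjusted p was between 0.0603 and 0.192, and DESeq2 did not call it. None of the 10 snoRNA host genes tested was called. Of 12 genes of the family and partners of Myc, a driver of ribosome production, Mxd4, a Myc antagonist, fell at day 5 (-3.63). Without set b2 of day 0 the value of Mxd4 was -2.28, and its call was lost. Myc itself was at 63.3 and 77.4 CPM at day 0 and 17.7 at day 7 (-1.99 ± 0.73), which missed the threshold (adjusted p = 0.0833), and passed it without set b1 of day 0 (-2.13, adjusted p = 0.04). Mycn lay between -0.62 and 0.60 over the 6 comparisons (adjusted p between 0.742 and 1). Of 16 mTOR pathway genes, Rragd, a Rag GTPase that brings mTORC1 to the lysosome, rose at days 4 and 5 (2.13 ± 0.56 and 1.98 ± 0.56, adjusted p = 0.00676 and 0.0113). Without set b2 of day 0 neither passed (1.64 and 1.49, adjusted p = 0.0901 and 0.109). Of 15 p53 targets and p53 pathway genes, Ccng1 fell at days 5 and 7 against day 0 and in day 7 against day 3, Mdm2 and Eda2r fell at day 5, and Trp53 rose in day 7 against day 3, beside backgrounds of 4.73% at day 5, 6.6% at day 7 and 3.52% in day 7 against day 3. Ccng1, a cyclin induced by p53, was at 854 and 734 CPM at day 0 and at 142 at day 7 (-2.48 ± 0.52, adjusted p = 8.55e-05). Its calls at days 5 and 7 and that of Eda2r held without each set in turn. Mdm2 lost its call without set b2 of day 0 (-1.04, adjusted p = 0.23) and without either day 3 set (adjusted p = 0.0908 and 0.101), and was 0.74 when the small b1 sets were added. Without the day 3 sets b1 and b2, Trp53 was 1.40 and 2.17 (adjusted p = 0.636 and 0.076) and Ccng1 in day 7 against day 3 had an adjusted p of 0.128 and 0.255. All p-values of these lists are from edgeR over all 22378 genes.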

How the data were processed

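The authors' deposited tables held RSEM expected counts and TPM for 461 single cells, and the submitters' processing notes name bcl2fastq and RSEM 1.2.22. The sources used here name no aligner, genome build or annotation. Of the deposited expected counts 9.108% were not exactly whole (no tolerance). The deposited TPM summed to between 994110 and 999272 per cell. No cell was removed. Expected counts were summed over each set and rounded, and the 8 sets of 10 or more cells entered 1 edgeR 4.0.16 fit (R 4.3.3) with TMM factors of 0.833 to 1.15, filterByExpr by day and no block. It had 2 residual and unlimited prior degrees of freedom, so p rests on the spread shared over genes. The standard error is the log2 fold change over the root of F. Prefixes were not taken as pairs, since the labels do not say what they stand for. The check of replicate numbers found a correlation of 0.0574 between the b1 minus b2 differences of days 0 and 3, over 22378 genes. A value over all genes cannot show that single genes did not differ by prefix. Near copies came from blastn 2.17.0. Alternatives used DESeq2 1.42.0 and limma 3.58.1 with pseudocounts of 1 and 0.1. Descriptions used pandas 2.3.3 and scipy 1.17.1. The edgeR step was tested on simulated data. Named genes are the members, Rpsa, Rack1, Fau, Myc, Mycn, and up to 4 called genes of each list in each comparison. A further gene of that rule is not reported here. The members, lists and tests were chosen with earlier results of these data known. A further 7 cells of b1 (5 of day 5, 2 of day 7) entered an alternative only.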

Additional observations from a re-analysis of the deposited data

Results flagged for a closer look

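Rplp2 differed in opposite directions between day 0 and day 3 in the prefixes that hold both days. In log2 CPM, day 3 minus day 0 was 0.28 in b1 and -0.52 in b2. Each prefix gives 1 set a day, and the difference between prefixes was not tested.

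The small b1 sets outside the comparisons held levels above both day 0 sets for some genes. In the 5 cells of day 5, the mean TPM was 4553 for Rplp0 and 3350 for Rplp1. In the 2 cells of day 7, it was 6246 for Rplp1 and 3683 for Rplp2. No test was made on so few cells.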

How the results depend on the processing

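None of the 3 stalk genes was called under any of 15 alternatives, and their lowest adjusted p was 0.295. Of 267 log2 fold changes of these genes under the alternatives, 228 kept their direction and 39 changed sign. Without a scaling factor, the value was 0.11 for Rplp1 and 0.14 for Rplp2 at day 3, and 0.0331, 0.12 and 0.26 for Rplp0, Rplp1 and Rplp2 at day 4, against day 0. With limma on log2 mean TPM, whichever the pseudocount or filter, it was 0.0785 for Rplp1 and 0.13 for Rplp2 at day 3, 0.035 (0.0351 with a pseudocount of 0.1), 0.21 and 0.30 for Rplp0, Rplp1 and Rplp2 at day 4, and 0.29 for Rplp1 at day 7, and Rplp1 was 0.22 in day 7 against day 3. With all 10 sums, Rplp1 was 0.45 at day 7 and 0.61 in day 7 against day 3, where it was 0.0309 with DESeq2 and 0.0038 without the cells with the fewest genes. Mdm2 at day 5 was 0.74 with all 10 sums.

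Leaving out 1 set at a time moved the stalk values as follows. Rplp0 ran from -0.0345 to 0.64 at day 1, from -0.61 to 0.0659 at day 3, from -0.65 to 0.0251 at day 4, from 0.0254 to 0.70 at day 5 and from -0.10 to 0.57 at day 7, and from 0.43 to 0.59 in day 7 against day 3. Rplp1 ran from 0.59 to 0.96 at day 1, from -0.36 to 0.0086 at day 3, from -0.43 to -0.06 at day 4, from 0.23 to 0.60 at day 5, from -0.39 to -0.02 at day 7, and from -0.0699 to 0.0175 in day 7 against day 3. Rplp2 ran from 0.21 to 1.01 at day 1, from -0.52 to 0.28 at day 3, from -0.47 to 0.32 at day 4, from 0.02 to 0.81 at day 5 and from -0.11 to 0.69 at day 7. The sign changes at days 1, 3, 4 and 7 against day 0 came without one of the day 0 sets, which left day 0 with 1 set assumed to vary like the others.

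With the prefix as a replicate block, without day 4, Rplp1 at day 1 was 0.66 (adjusted p = 0.871 by edgeR), and no stalk gene was called. Prefixes share only a name as far as the labels say. Over all genes, the calls at days 1, 3, 5 and 7 against day 0 and in day 7 against day 3 were then 3, 158, 275, 419 and 146, against 265, 703, 1059, 1477 and 787 without it. Day 4 called 679. DESeq2 called 745, 1633, 1272, 2198, 2979 and 1968 in the 6 comparisons, and all 10 sums called 1, 37, 33, 158, 352 and 95. The share of the 3 genes was 0.439% of summed counts, since counts are not scaled for length. Of 327 alternative values of list genes, 174 kept their call, 151 lost it, 1 passed anew and 1 reversed. The alternatives planned for ribosomal protein paralogs were not run, as none of them is among the genes analysed here. Cells of day 4 had the lowest median depth, 0.983 M counts.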

Other observations

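The 2 cells of day 7 in prefix b1 were outside the comparisons. Rplp1 was the highest of the 3 stalk genes in both, with 5983 and 6509 TPM. Their ratios of Rplp1 to Rplp0 were 1.38 and 2.24, while the highest ratio among the 65 cells of day 7 in b2 was 1.19. In the 5 cells of day 5 in b1, Rplp0 ranged from 1662 to 7093 TPM and was the highest of the 3 genes in 4 cells.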
